A study of Mus musculus with 26 samples.

Results

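The 10 genes described here carry iron into the cell, store it and pass it out: Tfrc, Slc11a2, Steap3 and Trf on the uptake side, the ferritin subunits Fth1 and Ftl1, the exporter Slc40a1 with the ferroxidases Cp and Heph, and the porphyrin transporter Abcb6. They were listed by symbol, with earlier results of these data known, and each of the 10 was found once among 55416 listed genes. RNA was sequenced from choroid plexus of the 4th ventricle of adult male mice. The 12 Ctrl mice (C57Bl6J, sham surgery) and the 12 SCNx mice (C57Bl6J, lesion of the suprachiasmatic nuclei, the central pacemaker) were kept in constant darkness, and 1 mouse of each group was killed every 4 h from circadian time CT0 to CT44. The 2 KO mice (FoxJ1-ERT2-Cre+/-; Bmal1fl/fl, fed tamoxifen) were killed at ZT7 and ZT18 of a light-dark cycle. In KO mice the Foxj1 promoter drives Cre in cells with motile cilia, so that the deletion is not limited to choroid plexus, and no Cre-negative or untreated littermates were analysed here. The KO tissue was cut out by laser from frozen sections and sequenced with another kit, whereas Ctrl and SCNx tissue was removed with pincers. Ctrl libraries held 38751201 to 47335258 estimated counts, SCNx libraries 41807043 to 49527655, and the KO libraries 17425207 and 18059227. A library is named by its group and time, and each is 1 mouse, so that the spread within a group mixes mice and times of day.

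Iron reaches most cells bound to transferrin, the product of Trf, which the transferrin receptor (Tfrc) takes into endosomes. There a ferrireductase of the STEAP family (Steap3) reduces the iron and divalent metal transporter 1 (Slc11a2) releases it into the cytosol, where ferritin, a shell of heavy (Fth1) and light (Ftl1) chains, stores the surplus. Ferroportin (Slc40a1) exports iron, which ceruloplasmin (Cp) and hephaestin (Heph) oxidise so that transferrin can bind it again. In choroid plexus these steps serve the barrier between blood and cerebrospinal fluid, and the epithelium secretes transferrin. Cells low in iron let iron regulatory proteins bind short RNA hairpins, the iron-responsive elements. Bound in a 5′ UTR, such an element blocks translation, and bound in the 3′ UTR of Tfrc it protects the mRNA from decay. An isoform of Slc11a2 is also known to carry an element in its 3′ UTR, and its stem has a bulge.

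The hairpins were searched in the UTRs of protein-coding transcripts of GENCODE M21 (GRCm38) as an unpaired C, 5 bases, the loop CAGTGN and 5 bases that pair with the first 5 by Watson-Crick or G-T pairs, on the transcribed strand. A stem with a bulge, as in Slc11a2, does not match this pattern. The pattern was present in the 5′ UTR of 0.148% of 20899 genes and of 3 of the 10 genes described here, and in the 3′ UTR of 0.614% of 21022 genes and of 1 of the 10. The sites are shown because they set apart the storage and export genes, read at translation, from Tfrc, read at mRNA stability. Capitals mark the unpaired C and the 6-base loop.
Fth1, 5′ UTR, chr19:9982732-9982760, plus strand: ttcctgCttcaaCAGTGCttgaacggaac
Ftl1, 5′ UTR, chr7:45459779-45459807, minus strand: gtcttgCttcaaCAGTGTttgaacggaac
Slc40a1, 5′ UTR, chr1:45925465-45925493, minus strand: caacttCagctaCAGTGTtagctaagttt
Tfrc, 3′ UTR, chr16:32631219-32631247, plus strand: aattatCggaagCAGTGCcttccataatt
Tfrc, 3′ UTR, chr16:32631598-32631626, plus strand: cattatCgggagCAGTGTcttccataatg
Tfrc, 3′ UTR, chr16:32631663-32631691, plus strand: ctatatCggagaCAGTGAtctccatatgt
Tfrc, 3′ UTR, chr16:32631710-32631738, plus strand: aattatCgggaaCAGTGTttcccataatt
The 4 sites of Tfrc lie within one exon of Tfrc-201. The counts analysed here came from mapping to GRCm39, of which no coordinates are given.

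Before the results, 4 libraries must be named, because they stood apart in markers of other tissues. The 10 hepatocyte markers summed to 2264 CPM (CPM are counts relative to library size, here scaled with TMM factors) in Ctrl CT16 and 11958 in SCNx CT0, and to at most 36.0 in any other Ctrl and 15.1 in any other SCNx library. The 5 astrocyte markers summed to 708 CPM in Ctrl CT4 and 825 in SCNx CT32, against at most 70.8 and 122 in the other libraries of each group, and neuron markers were highest in the same 2 libraries. All 10 epithelial markers were present in Ctrl and SCNx, and their sum lay between 106244 CPM, in SCNx CT32, and 166843. Haemoglobin and Alas2, markers of red blood cells, summed to 6659 CPM in SCNx CT44, with a median of 540 in SCNx. In bulk tissue, fewer cells of a type and less RNA per cell cannot be told apart.

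Per length, ferritin heavy and light chain mRNA were the most abundant of the 10, and ferroportin mRNA was the scarcest. Median level in Ctrl, in CPM per kilobase of the longest coding transcript, was 527 for Fth1, 364 for Ftl1 and 124 for Trf. It was 21.2 for Cp, 10.7 for Slc11a2, 6.37 for Heph, 3.81 for Tfrc, 3.06 for Steap3, 2.94 for Abcb6 and 0.262 for Slc40a1. Tfrc, Steap3 and Abcb6 are close neighbours in this order, and with 12.1 to 34.8 CPM over the Ctrl mice Tfrc varied by more than the gaps between them. Reads of Ftl1 and Fth1 can be shared with processed copies of these genes, so their counts are uncertain to that extent. The listed copies took 0.541% to 1.03% of the Ftl1 family's CPM and 0.0335% to 0.107% of the Fth1 family's. All 10 genes passed the filter of a mean of 1 CPM in each group, but Slc40a1 did so in Ctrl only through Ctrl CT16, rich in liver transcripts. Its Ctrl mean without that library was 0.87 CPM, and its SCNx mean without SCNx CT0 was 1.06 CPM.

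**Figure D1:**
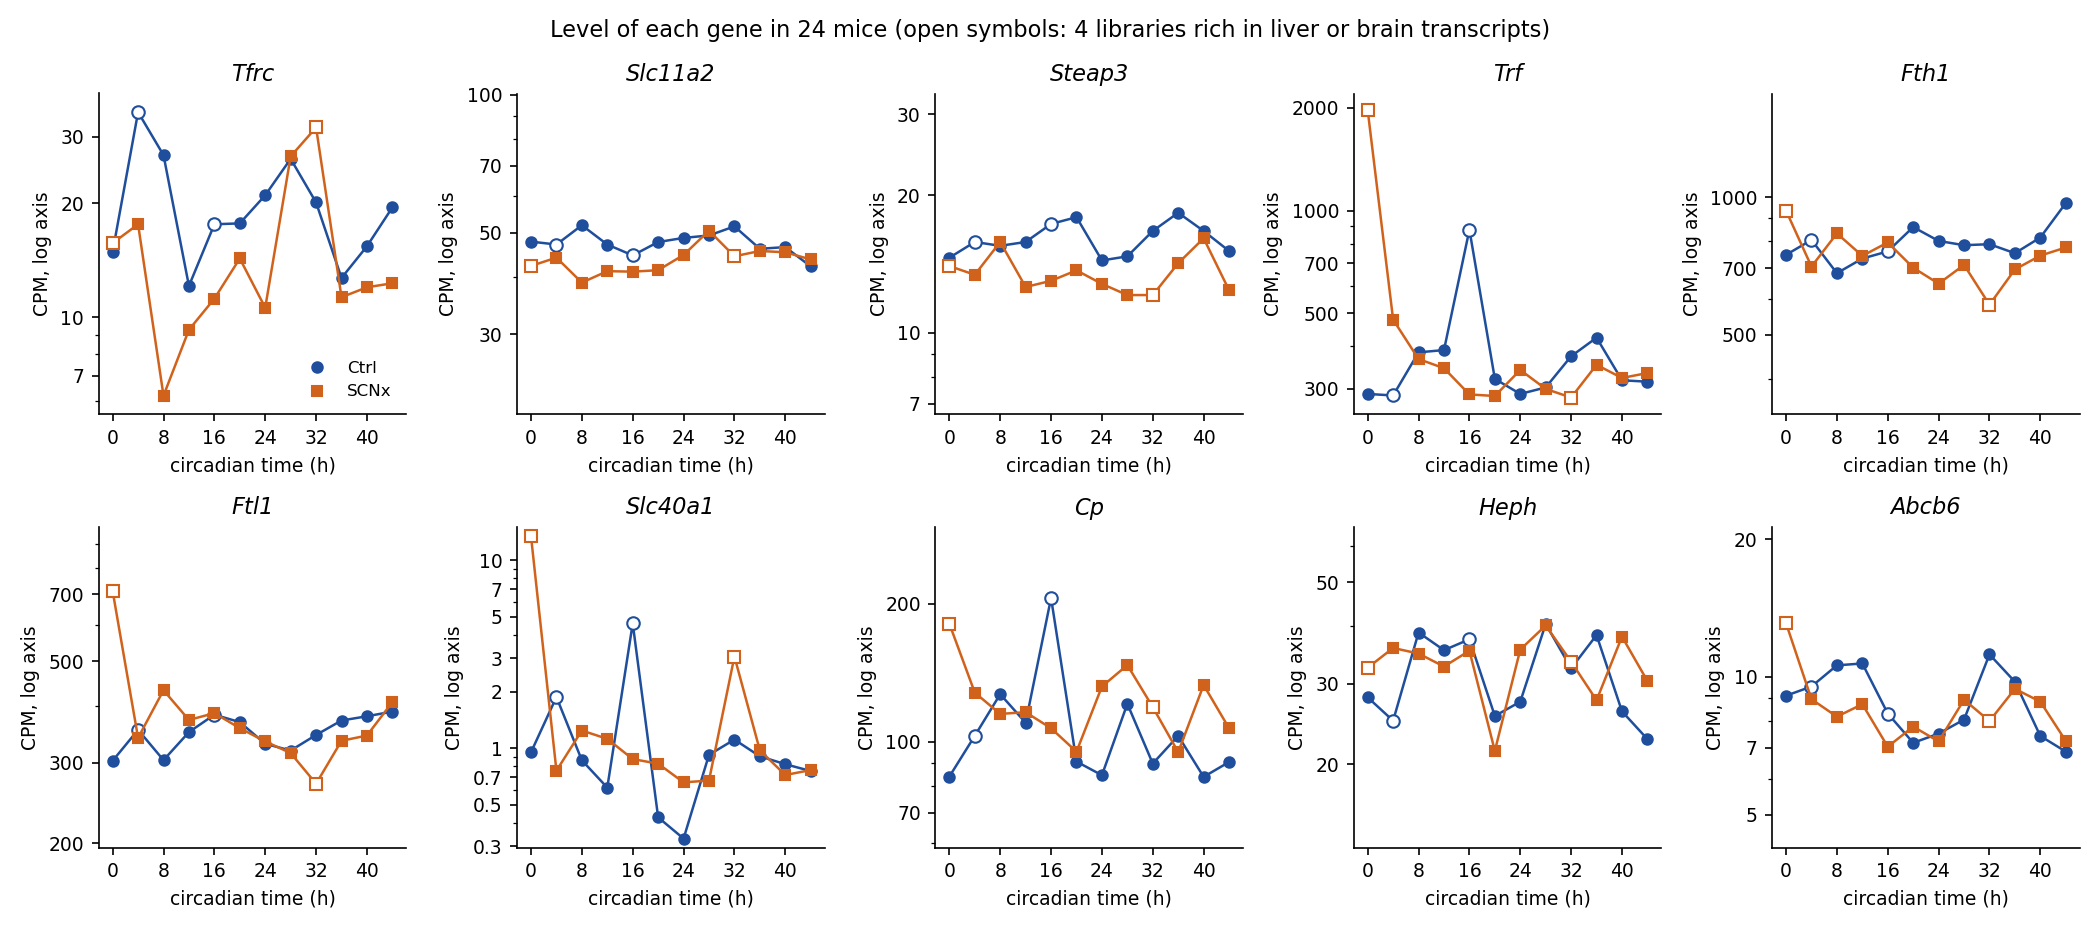
CPM of each of the 10 genes (log axis) against circadian time in hours, with 1 point per mouse, Ctrl in blue circles and SCNx in orange squares, and open symbols for Ctrl CT4 and SCNx CT32 (rich in brain transcripts) and Ctrl CT16 and SCNx CT0 (rich in liver transcripts). The peaks of Trf, Slc40a1 and Cp stand on open symbols, while Abcb6 in Ctrl is highest near CT8 to CT12 of both days.

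No member passed the test of any of the 4 comparisons. By the quasi-likelihood F test of edgeR, adjusted over 13697 genes after Benjamini and Hochberg, 0 of 10 differed in level between SCNx and Ctrl (0.0% of all genes did, and 1283 genes had an unadjusted p under 0.05). A 24 h rhythm, fitted as a cosine and a sine over 2 days, was called for 0 of 10 in Ctrl, where 10.7% of all genes were called. In SCNx 0 of 10 were called (0.0% of all genes, with 2032 genes at an unadjusted p under 0.05), and the rhythm differed between the groups for 0 of 10 (2.12% of all genes). At an unadjusted p under 0.05, 2 of 10 differed in level, both lower in SCNx, against 4.58% of all genes in that direction. At the same threshold 2 of 10 were rhythmic in Ctrl (24.8% of all genes), 1 in SCNx (14.8%) and 1 in the difference (15.1%). DESeq2 called 1 member each for level (Steap3) and for the Ctrl rhythm (Abcb6), beside 0.0511% and 15% of all genes. It called 0 for the SCNx rhythm (3.15% of all genes) and 0 for the difference, where 589 of 13697 genes were called. The clock genes gave the scale of a strong rhythm in these mice. Arntl, the gene of BMAL1, had a log2 amplitude of 2.23 ± 0.080 (SE) in Ctrl and 0.48 ± 0.27 in SCNx, and Dbp, an output gene of the clock, 2.04 ± 0.053 and 0.66 ± 0.23.

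Steap3, the endosomal ferrireductase, was the member nearest to a change in level. Its level in Ctrl was 14.4 CPM at the lowest, 15.8 at the median and 18.3 at the highest, and in SCNx 12.1, 13.2 and 16.1. The groups overlapped, but 10 of 12 SCNx mice lay below all Ctrl mice, and SCNx was lower at 11 of 12 times. The log2 fold change of SCNx against Ctrl was -0.25 ± 0.053 (SE; 95% interval -0.36 to -0.14), with an adjusted p of 0.266 in edgeR. By unadjusted p (9.08e-05) it ranked 3 of 13697 genes. The adjusted p of 0.266 was the smallest value of the test, shared with other genes, those ranked above Steap3 among them. DESeq2 called it, with an adjusted p of 0.0237, as 1 of 7 genes (0.0511%).  Without Ctrl CT16 and SCNx CT0 the difference was -0.24 ± 0.056. Steap3 had no called rhythm, with an amplitude of 0.11 ± 0.038 in Ctrl and 0.06 ± 0.059 in SCNx.

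Slc11a2, which carries iron out of the endosome, varied little across mice. It ranged from 42.2 through a median of 47.4 to 51.9 CPM in Ctrl and from 38.9 through 43.9 to 50.5 in SCNx. SCNx was lower at 10 of 12 times, and 4 of 12 SCNx mice lay below all Ctrl mice. SCNx against Ctrl, the log2 fold change was -0.13 ± 0.037, which did not pass the test (edgeR, adjusted p = 0.366), although its unadjusted p of 0.00252 ranked 92 of 13697. Without the 2 libraries rich in liver transcripts the log2 fold change was -0.13 ± 0.039.

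Tfrc, the receptor with 4 hairpins in its 3′ UTR, varied more from mouse to mouse than Steap3 or Slc11a2. It ranged from 12.1 through 18.6 to 34.8 CPM in Ctrl and from 6.21 through 12.2 to 31.7 in SCNx. The highest library of each group, Ctrl CT4 and SCNx CT32, was the one rich in brain transcripts, and the part of those transcripts in the level of Tfrc was not tested. The next highest were Ctrl CT8 with 26.8 CPM and SCNx CT28 with 26.6. SCNx was lower at 9 of 12 times and 6 of 12 SCNx mice lay below all Ctrl mice, yet the log2 fold change of -0.42 ± 0.22 did not pass (edgeR, adjusted p = 0.570). It was -0.32 without Ctrl CT4 and -0.58 without SCNx CT32. Within pairs of mice killed 24 h apart, the SD of single mice was 0.233 log2 units in Ctrl and 0.727 in SCNx, where CT8 and CT32 were 2.35 apart. The fitted amplitudes were alike in size, 0.44 ± 0.14 in Ctrl with a peak at 3.5 h and 0.46 ± 0.26 in SCNx with a peak at 4.37 h, and neither was called (edgeR, adjusted p = 0.276 and 0.381).

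**Figure D2:**
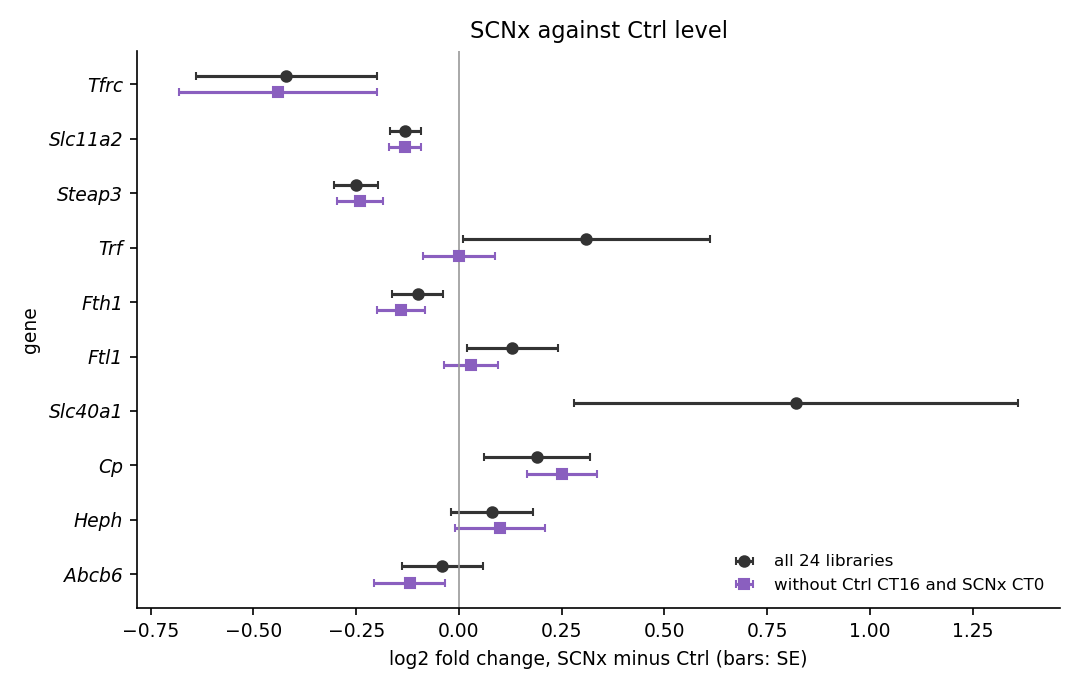
Log2 fold change of SCNx against Ctrl for each gene with its SE, from all 24 libraries (black circles) and without Ctrl CT16 and SCNx CT0 (purple squares), where Slc40a1 falls under the filter. Trf moves from 0.31 to 0.00 between the settings, while Steap3 (-0.25 and -0.24) and Slc11a2 (-0.13 and -0.13) hold their place.

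Trf, the iron carrier that choroid plexus secretes, was high in exactly the libraries rich in liver transcripts. It stood at 879 CPM in Ctrl CT16, where the other 11 Ctrl mice ranged from 287 through a median of 318 to 424. In SCNx CT0 it stood at 1969 CPM, and the other 11 SCNx mice ranged from 283 through 334 to 479. Transferrin is also a major product of liver, and the part of liver transcripts in these 2 values was not tested. For Trf the log2 fold change was 0.31 ± 0.30 over all libraries, 0.00 ± 0.087 (95% interval -0.18 to 0.18) without these 2, and -0.18 without SCNx CT0 alone. The first 2 had an adjusted p of 0.768 and 0.994 in edgeR. Among the other 11 Ctrl mice, Trf was highest at CT8, CT12, CT32 and CT36, with 384, 390, 374 and 424 CPM, and lowest at CT0, CT4 and CT24, with 290, 287 and 290 CPM.

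The rhythm of Trf therefore depended on these libraries. With all 12 Ctrl mice the amplitude was 0.45 ± 0.16 with a peak at 14.1 h (edgeR, adjusted p = 0.462), and without Ctrl CT16 and SCNx CT0 it was 0.24 ± 0.040 with a peak at 11.8 h (adjusted p = 0.0566). When Ctrl CT4 and SCNx CT32, rich in brain transcripts, were left out too, the amplitude was 0.23 ± 0.037 and passed the test (edgeR, adjusted p = 0.0229), in a fit that called 21.7% of all genes. In SCNx the amplitude fell from 0.72 ± 0.31 with all mice to 0.13 ± 0.092 without the 2 libraries rich in liver transcripts, and neither was called (edgeR, adjusted p = 0.232 and 0.467). Tested as a difference between Ctrl and SCNx, the rhythm of Trf gave an adjusted p of 0.18 with all libraries and 0.264 without the 2 (edgeR). With no filter on low counts, where 40287 genes were tested on all libraries, both the SCNx rhythm and the difference passed (edgeR, adjusted p = 0.0466 and 0.0493), beside 3.44% and 1.62% of all genes. Without the 2 libraries and with no filter, the Ctrl rhythm of Trf passed (edgeR, adjusted p = 0.0169), beside 4.7% of all genes, as did those of Cp, Heph and Tfrc, while in SCNx Tfrc alone of the members passed, beside 4.67%. The difference of Trf did not pass there (adjusted p = 0.125).

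The ferritin genes, both with a hairpin in the 5′ UTR, changed little in level. Fth1 ranged from 682 through 787 to 970 CPM in Ctrl and from 582 through 727 to 934 in SCNx, and Ftl1 from 303 through 352 to 388 and from 270 through 350 to 711. The highest SCNx value of both was SCNx CT0, rich in liver transcripts, and the lowest was SCNx CT32, rich in brain transcripts. Between the groups the log2 fold change was -0.10 ± 0.062 for Fth1 and 0.13 ± 0.11 for Ftl1 (edgeR, adjusted p = 0.631 and 0.709). Without Ctrl CT16 and SCNx CT0 it was -0.14 ± 0.058 for Fth1 and 0.03 ± 0.065 for Ftl1. In Ctrl the lowest level of Fth1 was at CT8 and the highest at CT44, with a fitted peak at 20.7 h and an amplitude of 0.12 ± 0.042, and Ftl1 had an amplitude of 0.13 ± 0.037 with a peak at 16.3 h. Neither was called (edgeR, adjusted p = 0.411 and 0.691).

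The 2 ferritin genes varied together across SCNx mice, and less clearly across Ctrl mice. Over the 12 SCNx mice Pearson's r of their log2 CPM was 0.90 (permutation p = 2e-05, adjusted 0.00028) and Spearman's rho 0.88 (permutation p = 0.0003, adjusted 0.0021), and r was 0.84 without the 2 mice farthest from the median of Fth1, SCNx CT0 and SCNx CT32. Over the 12 Ctrl mice r was 0.61 (permutation p = 0.0312, adjusted 0.0546) and rho 0.57 (permutation p = 0.059, adjusted 0.103). In Ctrl r was 0.26 without Ctrl CT8 and Ctrl CT44, so that the relation there rests largely on those 2 mice. Without Ctrl CT16, rich in liver transcripts, r was 0.70 in Ctrl. Both values of a pair come from one library and share its depth and composition. Each mouse of a group was killed at another time, so that the relations also mix mouse with time of day. The permutations do not separate them. The relations of Fth1 with Ftl1 were 2 of 14 computed, chosen after the values had been seen, with adjustment over the 14.

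Slc40a1, the only known iron exporter of mammalian cells, was near the limit of the filter. In Ctrl it ranged from 0.33 through 0.882 to 4.61 CPM and in SCNx from 0.657 through 0.85 to 13.4. The highest values were Ctrl CT16 and SCNx CT0, rich in liver transcripts, and the next were Ctrl CT4 with 1.87 and SCNx CT32 with 3.07, rich in brain transcripts. Without the first 2 the means were 0.87 ± 0.404 in Ctrl and 1.06 ± 0.691 in SCNx (SD, n = 11). A log2 fold change of 0.82 ± 0.54 did not pass (edgeR, adjusted p = 0.649), and it was -0.15 without SCNx CT0. Its amplitudes of 0.47 ± 0.41 and 1.2 ± 0.54 were not called (edgeR, adjusted p = 0.806 and 0.386).

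Cp, the ceruloplasmin gene, was also highest in the libraries rich in liver transcripts. It stood at 206 CPM in Ctrl CT16 and 181 in SCNx CT0, and the other mice ranged from 83.8 through 90.5 to 127 in Ctrl and from 94.9 through 116 to 147 in SCNx. Ceruloplasmin is a liver product too, and the part of liver transcripts in these 2 values was not tested. The rise over the median of the other 11 mice was 115 CPM in Ctrl CT16 and 65.5 in SCNx CT0 for Cp, 2260 and 11954 for the hepatocyte markers, 561 and 1635 for Trf, and 473 and 285 for Hpx, a liver gene that codes for the haem carrier of plasma. Cp and Hpx stood higher over the other mice in Ctrl CT16, and Trf and the summed hepatocyte markers in SCNx CT0. For Cp the log2 fold change was 0.19 ± 0.13 with all libraries and 0.25 ± 0.085 without these 2 (edgeR, adjusted p = 0.673 and 0.334). In the latter, 0 of 11 SCNx mice lay below the Ctrl median and 4 lay above all Ctrl mice. Markers of endothelium moved the same way, with a summed median of 135 CPM in Ctrl and 182 in SCNx, and their part in the level of Cp was not tested.

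Cp followed the endothelial markers across the libraries of each group, where mouse and time of day cannot be told apart. Both values also come from one library. Within Ctrl, r of log2 Cp with the log2 sum of the 5 markers was 0.77 (permutation p = 0.00091, adjusted 0.00425) and rho was 0.94 (permutation p = 6e-05, adjusted 0.00084), and r was 0.81 without Ctrl CT8 and Ctrl CT28, the mice farthest from the median of the markers. Within SCNx, r was 0.72 (permutation p = 0.00953, adjusted 0.0261) and rho 0.83 (permutation p = 0.00171, adjusted 0.00798), and r fell to 0.48 without SCNx CT20 and SCNx CT36. Without the library rich in liver transcripts, r was 0.94 in Ctrl and 0.91 in SCNx. Ctrl CT28, the mouse with the highest marker sum of Ctrl (226 CPM), had 121 CPM of Cp, and Ctrl CT40, with the lowest (97.4), had 83.8.

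**Figure D3:**
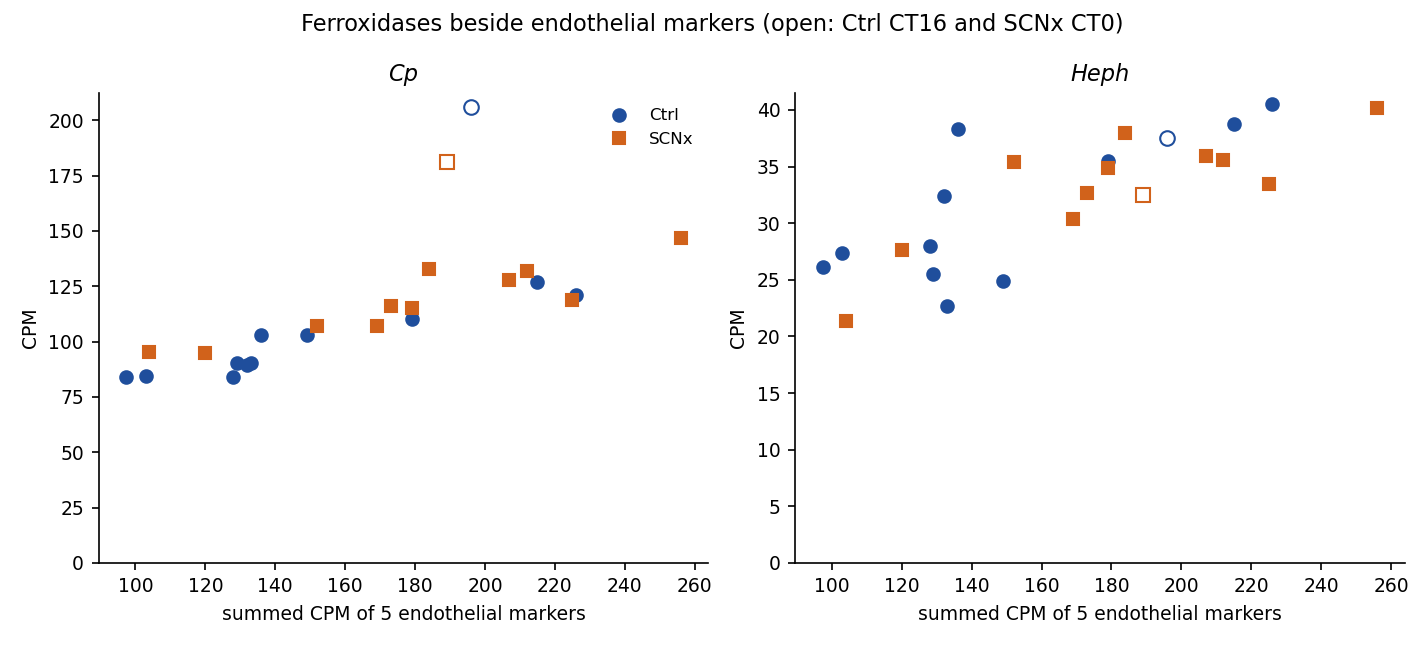
CPM of Cp (left) and Heph (right) against the summed CPM of 5 endothelial markers, with 1 point per mouse, Ctrl in blue circles, SCNx in orange squares, and open symbols for Ctrl CT16 and SCNx CT0. Apart from the open symbols, Cp climbs with the markers in both groups, and the open symbols stand above the rest at 206 and 181 CPM.

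Heph, the membrane-bound ferroxidase, showed no such liver peak. It ranged from 22.7 through 30.2 to 40.5 CPM in Ctrl and from 21.4 through 34.2 to 40.2 in SCNx, with a log2 fold change of 0.08 ± 0.10 (edgeR, adjusted p = 0.851). In Ctrl it was above 32 CPM at CT8, CT12, CT16, CT28, CT32 and CT36 and at most 28.0 at the other 6 times. Its amplitude in Ctrl was 0.28 ± 0.094 with a peak at 9.49 h, which did not pass (edgeR, adjusted p = 0.116), and in SCNx 0.12 ± 0.098 (adjusted p = 0.681). Within pairs of Ctrl mice killed 24 h apart, the SD of single mice was 0.27 log2 units, close to the Ctrl amplitude of 0.28. The largest gap was 0.7, between CT4 (24.9 CPM) and CT28 (40.5). The Ctrl rhythm of Heph passed when all 4 libraries that stood apart were left out (edgeR, adjusted p = 0.0197), with an amplitude of 0.35 ± 0.067. Ctrl CT4 was among those left out, as was Ctrl CT16 (37.5 CPM, against 26.1 at CT40). That fit called 21.7% of all genes. The rhythm of Heph was not called different between Ctrl and SCNx (edgeR, adjusted p = 0.563). Heph varied with Cp, with r of 0.65 in Ctrl (permutation p = 0.0112, adjusted 0.0261) and 0.60 in SCNx (permutation p = 0.0438, adjusted 0.0681), rho of 0.63 and 0.67 (permutation p = 0.0328 and 0.0213, adjusted 0.0656 and 0.0597), and r of 0.70 and 0.83 without the 2 mice farthest from the median of Cp. It also varied with the endothelial markers, with r of 0.72 in Ctrl (permutation p = 0.00994, adjusted 0.0261) and 0.86 in SCNx (permutation p = 0.00055, adjusted 0.00385), and r fell to 0.55 and 0.51 without the 2 farthest mice. For that relation rho was 0.64 and 0.70 (permutation p = 0.031 and 0.0143, adjusted 0.0656 and 0.05).

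For the receptor the relations were less even. Trf and Tfrc had r of -0.26 in Ctrl (permutation p = 0.417, adjusted 0.449; rho -0.50, permutation p = 0.0995, adjusted 0.139) and 0.02 in SCNx (permutation p = 0.93, adjusted 0.93; rho -0.29, permutation p = 0.366, adjusted 0.379). Without the 2 mice farthest from the median of Trf, r was -0.28 in Ctrl and -0.75 in SCNx, so that the value in SCNx rests on SCNx CT0 and SCNx CT4. Tfrc and Slc11a2 had r of 0.33 in Ctrl (permutation p = 0.302, adjusted 0.384) and 0.65 in SCNx (permutation p = 0.0244, adjusted 0.0488), with rho of 0.53 and 0.47 (permutation p = 0.0792 and 0.128, adjusted 0.123 and 0.163) and r of 0.49 and 0.51 without the 2 farthest mice. Tfrc and the endothelial markers had r of 0.30 in Ctrl and 0.42 in SCNx (permutation p = 0.349 and 0.169, adjusted 0.407 and 0.237) and rho of 0.28 and 0.45 (permutation p = 0.379 and 0.139, adjusted 0.379 and 0.163). Without the 2 mice farthest from the median of the markers these r were -0.08 and 0.71.

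Abcb6, which moves porphyrins and so stands between iron and haem, was the member nearest to a 24 h rhythm. In Ctrl its level was 9.10 CPM at CT0, 9.53 at CT4, 10.6 at CT8, 10.7 at CT12, 8.32 at CT16 and 7.18 at CT20. On the second day it was 7.52 CPM at CT24, 8.07 at CT28, 11.2 at CT32, 9.76 at CT36, 7.43 at CT40 and 6.87 at CT44. The highest values of both days fell at CT8, CT12, CT32 and CT36, and the lowest at CT20, CT24, CT40 and CT44. Within pairs of mice killed 24 h apart, the SD of single mice was 0.125 log2 units. The fitted amplitude of 0.29 ± 0.052 was larger, peaked at 8.53 h and held 77.5% of the variance of log2 CPM in Ctrl. The test gave an adjusted p of 0.0613 (edgeR), just outside the threshold, and by unadjusted p Abcb6 ranked 1684 of 13697 genes.

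Leaving out the libraries rich in liver transcripts brought Abcb6 past the threshold with the same amplitude in Ctrl, 0.29 ± 0.056, and an adjusted p of 0.00597 (edgeR), in a fit that called 12.3% of all genes. Of these libraries SCNx CT0 held the highest level of Abcb6 among all 24, 13.1 CPM, and the other SCNx mice ranged from 7.04 through 8.19 to 9.42. Leaving out SCNx CT0 alone gave an adjusted p of 0.00423, since both groups share one estimate of the spread, and the Ctrl mice fitted alone gave 0.0121. DESeq2 gave an adjusted p of 0.0332, in a test that called 15% of all genes. Over all alternatives the adjusted p ranged from 0.00423 to 0.317, the latter with the 6 times of day as a factor. In SCNx the amplitude was 0.10 ± 0.10 with all mice and 0.12 ± 0.056 without SCNx CT0, and neither was called (edgeR, adjusted p = 0.699 and 0.443). The difference of the rhythm did not pass (adjusted p = 0.362, and 0.443 without the 2 libraries), so that a loss of the rhythm in SCNx is not shown. The level did not differ, with a log2 fold change of -0.04 ± 0.098 (edgeR, adjusted p = 0.937).

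**Figure D4:**
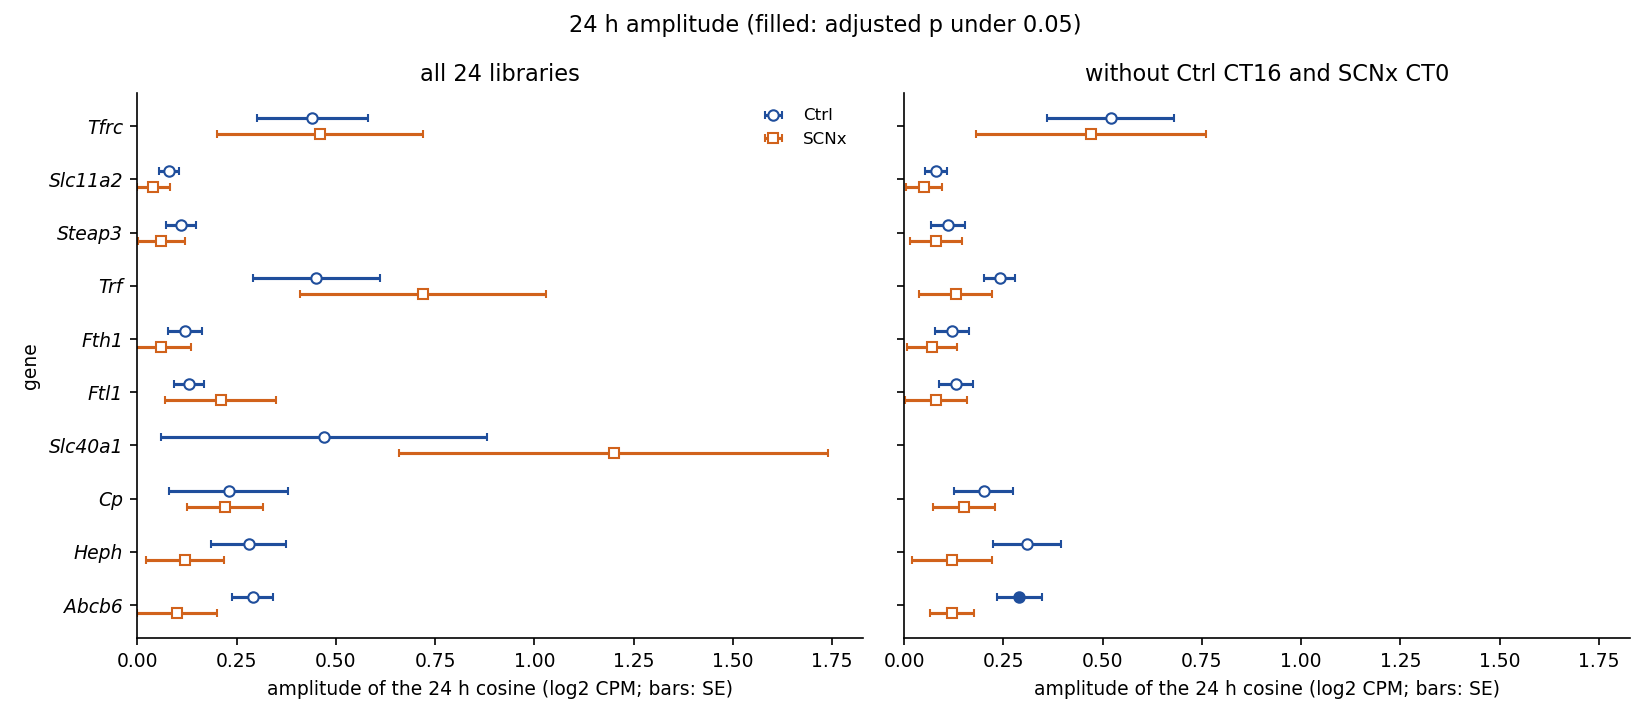
Log2 amplitude of the fitted 24 h cosine of each gene with the SE of a separate least-squares fit, in Ctrl (blue circles) and SCNx (orange squares), from all libraries (left) and without Ctrl CT16 and SCNx CT0 (right), filled where the adjusted p was under 0.05. The filled symbol is Abcb6 in Ctrl on the right, and the amplitudes of Trf are smaller on the right (0.24 and 0.13) than on the left (0.45 and 0.72).

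Of all tested genes, Cpt1b, Cdc14a, Gpr146, Slc41a1 and Rhbdd3 had the pattern most like that of Abcb6 over the 12 Ctrl libraries, with r of log2 CPM of 0.97, 0.95, 0.94, 0.94 and 0.94. Cpt1b codes for a carnitine palmitoyltransferase and Slc41a1 for a magnesium transporter. They were chosen for this likeness, so no test is given. Over the 12 SCNx libraries r with Abcb6 was -0.17, -0.60, 0.11, 0.00 and 0.07. The promoter table from RefSeq (GRCm38.p6, 250 bases before to 50 after the start) held 6 of the 10 members with 12 promoters. Which members these were is not given here, so that the counts below are not read for Abcb6 by itself. The E-box CACGTG, the palindrome bound by BMAL1 and CLOCK, was in 0 of these 12 promoters and in 7.15% of all 32851. The D-box TTACGTAA, bound by DBP, was in 0 of 12 and in 0.12% of all. Both are palindromes and so read alike on both strands, and their absence says only that these letters are not in these windows.

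Among 65 further iron genes in 4 lists, 60 were tested. In level 0 of 60 passed in edgeR and 0 of 60 in DESeq2. At an unadjusted p under 0.05 there were 4, against 9.37% of all genes, with 2 lower and 2 higher in SCNx. The smallest p of the 4 was that of Mcoln1, lower in SCNx, with a log2 fold change of -0.14 ± 0.032 and an adjusted p of 0.266 in edgeR. Ncoa4, which delivers ferritin to lysosomes, was 132 ± 7.89 CPM in Ctrl and 145 ± 10.5 in SCNx (SD, n = 12), with a log2 fold change of 0.14 ± 0.039 and an adjusted p of 0.366 in edgeR. SCNx was higher at 10 of 12 times, and 8 SCNx mice lay above all Ctrl mice. Aco1 and Ireb2 code for the iron regulatory proteins that bind the hairpins printed above, and their mRNA levels were close between the groups. They were 63 ± 4.14 and 64.7 ± 7.4 CPM for Aco1 and 128 ± 8.49 and 133 ± 9.83 for Ireb2. Protein was not measured here. Their log2 fold changes were 0.04 ± 0.052 and 0.05 ± 0.041, and their rhythms were not called (edgeR, adjusted p of at least 0.473 in both groups).

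In Ctrl, 10 of these 60 genes were called rhythmic, beside 10.7% of all genes, and 0 of 60 in SCNx (6 at an unadjusted p under 0.05), where DESeq2 called 12 and 3 of 60, beside 15% and 3.15% of all genes. In uptake and trafficking 3 of 18 were called: Snx3, which recycles the transferrin receptor, with an amplitude of 0.17 ± 0.037 and a peak at 19.0 h, Ap2m1, a subunit of the clathrin adaptor (0.14 ± 0.032, peak at 1.93 h), and Steap1, a paralogue of Steap3 (0.22 ± 0.037, peak at 11.3 h). In iron sensing and ferritin handling 1 of 9 was called, Hif1a (0.15 ± 0.033, peak at 8.5 h). Of the haem and mitochondrial genes 4 of 24 were called, among them Hmox1, which frees iron from haem (0.29 ± 0.073), Alas1, the rate-limiting enzyme of haem synthesis (0.18 ± 0.026, peak at 15.1 h), and Uros (0.20 ± 0.066, peak at 20.7 h). Their adjusted p in edgeR lay between 0.00844 and 0.0499. The peaks of these genes were spread over the day. Of the hepcidin axis 2 of 9 were called, one of them Neo1 (0.16 ± 0.031, peak at 8.86 h, adjusted p = 0.0483).

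The other called genes, Hpx and Hamp, stood on Ctrl CT16 alone. Hpx was 473 CPM there and at most 5.66 in the other 11 Ctrl mice, and Hamp, the gene of the liver hormone hepcidin, was 21.0 CPM there and at most 0.421. Both were also the 2 of 60 genes whose rhythm was called different between the groups (2.12% of all genes), and without Ctrl CT16 and SCNx CT0 both fell under the filter. In that fit Snx3, Steap1, Hif1a, Hmox1, Neo1 and Uros were called again, with Cubn and Steap2 in addition, and Ap2m1 and Alas1 were not (adjusted p = 0.0586 and 0.0527).

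The KO mice can only be described, since each time was 1 mouse and tissue, kit and lighting differed. The counts of Arntl, the targeted gene, were 184 at ZT7 and 169 at ZT18, or 10.6 and 9.36 CPM of the library total, against 2.11 to 40.3 over the Ctrl mice. Counts over the whole gene do not check the deleted part. Epithelial markers summed to 86281 and 81945 CPM, below every Ctrl and SCNx library, and astrocyte markers to 758 and 873, near the sums of Ctrl CT4 and SCNx CT32. Oligodendrocyte markers summed to 317 and 466 CPM, against at most 281 in any Ctrl or SCNx library. Endothelial (176 and 224) and fibroblast sums (374 and 507) were also higher at ZT18. The part of these cell types in the KO levels was not tested. In CPM of the library total, Trf stood at 323 and 312, Cp at 116 and 129, Tfrc at 25.1 and 22, Heph at 31.7 and 24.0 and Slc40a1 at 1.55 and 2.33, all within the range of the Ctrl mice. For Cp and Slc40a1 at ZT18 this held only through Ctrl CT16, without which the highest Ctrl values were 121 and 1.84 CPM. Fth1 (467 and 569 CPM), Ftl1 (159 and 196), Slc11a2 (13.9 and 16.8), Steap3 (4.76 and 7.2) and Abcb6 (4.88 and 5.04) lay below every Ctrl and SCNx mouse. Genotype, kit, dissection, age, animal facility and RNA integrity cannot be told apart here. By the paper, the KO mice were older and kept elsewhere, and their RNA was less intact. Fth1 ranked 141 and 110 among all genes in KO and had a median rank of 86 in Ctrl, and Slc11a2 ranked 7557 and 7229 against 3856.

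The day-night difference was taken as ZT7 minus ZT18 in KO, and as the mean of CT8 and CT32 minus the mean of CT16, CT20, CT40 and CT44 in the other groups, in log2 CPM. For Fth1 it was -0.29 in KO, -0.27 in Ctrl and -0.04 in SCNx, and for Ftl1 -0.30, -0.29 and -0.05. Without SCNx CT32, the day library rich in brain transcripts, which leaves 1 mouse for the SCNx day, the SCNx values were 0.18 for Fth1 and 0.25 for Ftl1. Heph was higher by day in each group, by 0.40 in KO, 0.31 in Ctrl and 0.23 in SCNx. Abcb6 was -0.05 in KO (95% counting interval -0.47 to 0.38), 0.49 in Ctrl and 0.15 in SCNx. Steap3 was -0.59 in KO (-0.99 to -0.20), -0.11 in Ctrl and 0.08 in SCNx (0.23 without SCNx CT32), on 83 and 130 counts in KO. Tfrc was 0.19 in KO (-0.01 to 0.38), 0.35 in Ctrl and 0.25 in SCNx, and the SCNx value was -0.97 without SCNx CT32. Trf was 0.05 in KO, 0.14 in SCNx (0.29 without SCNx CT32) and -0.17 in Ctrl, or 0.18 in Ctrl without CT16. The intervals cover counting error only and not the spread between mice. They also leave out the differences in marker sums between the KO libraries, whose part in these values was not tested. For the reference gene Dbp the difference was -0.35 in KO, 2.39 in Ctrl and 1.26 in SCNx (2.23 without SCNx CT32).

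**Figure D5:**
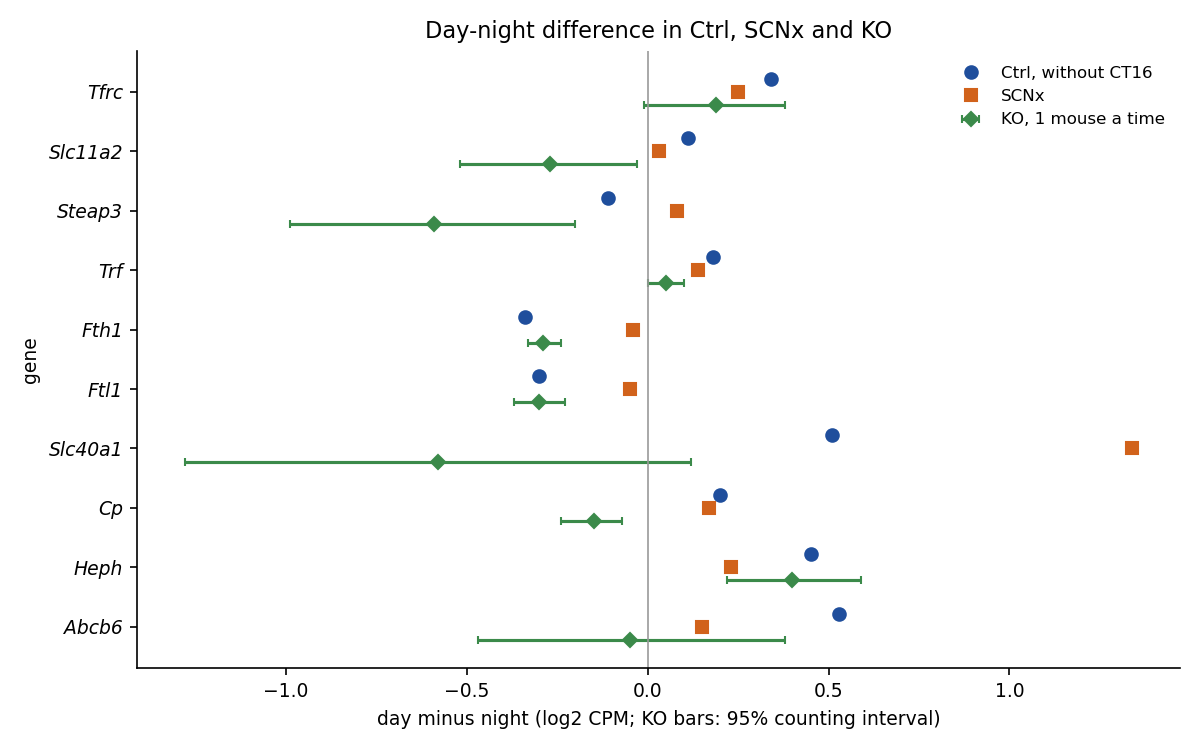
Day minus night difference of log2 CPM for each gene in Ctrl without CT16 (blue circles), SCNx (orange squares) and KO (green diamonds, bars for the 95% counting interval of 1 mouse against 1). The ferritin genes lie at -0.34 and -0.30 in Ctrl and -0.29 and -0.30 in KO. The SCNx symbols include SCNx CT32, without which they would stand at 0.18 and 0.25 for Fth1 and Ftl1, at -0.97 in place of 0.25 for Tfrc, and at 0.66 in place of 1.34 for Slc40a1.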

How the data were processed

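The authors deposited Salmon 1.9.0 estimated counts per gene, not normalized, from single-end reads mapped to GRCm39. The submitters' processing notes also name STAR, cutadapt 3.4, SAMtools 1.16.1 and StringTie 2.2.1. The counts were rounded to whole numbers. The 13697 genes whose mean CPM reached 1 in both Ctrl and SCNx were fitted with edgeR 4.0.16 in R 4.3.3 (TMM, quasi-likelihood F test, Benjamini-Hochberg adjustment over all of them, threshold 0.05). One model held a mean per group, the other also a 24 h cosine and sine per group, both over all 24 Ctrl and SCNx libraries. Amplitudes and peaks came from the edgeR fit. Errors of amplitudes and the share of variance came from a separate least-squares fit to log2 CPM (prior count 1), whose own amplitude can differ from the printed one. KO values are CPM of the library total, without a test. Correlations used 100000 permutations, two-sided. The fits were tested on simulated data. Alternatives were DESeq2 1.42.0, its size factors, limma-trend (limma 3.58.1), other filters and models, and left-out libraries.

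The members and the gene lists were chosen with earlier results of these data known. Beyond the members, the rule named further iron genes called in any test, Hmox1, Aco1, Ireb2 and Ncoa4, the clock genes Arntl and Dbp, and the 5 genes most like the member of smallest p for a rhythm in Ctrl. Cubn, Steap2 and Mcoln1 were named after their values were seen. The labels give 1 mouse per time, so p-values rest on the spread of mice around the fitted means or curves. In the level test that spread also holds differences between times of day. Tables and figures used Python 3.11.15 (scipy 1.17.1, pandas 2.3.3, matplotlib 3.10.9, numpy 2.4.6).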

Additional observations from a re-analysis of the deposited data

How the results depend on the processing

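Of the counts of members that passed a test, the level count was 0 in every setting but DESeq2, which called 1 (Steap3), beside 0.0511% of all genes. The count with a 24 h rhythm in Ctrl was 0 in the reported fit, beside 10.7% of all genes. It was 1 (Abcb6) with DESeq2 (15%), without Ctrl CT16 and SCNx CT0 (12.3%) and with the Ctrl mice fitted alone (1997 of 13697 genes). When each mouse was left out in turn, it was between 0 and 1. Abcb6 was called without Ctrl CT0 (edgeR, adjusted p = 0.043), where 1499 of 13711 genes were called. It was also called without SCNx CT0 (edgeR, adjusted p = 0.00423), where 1599 of 13600 were called. The Ctrl count was 3 (Abcb6, Heph, Trf) without the 4 libraries that stood apart, beside 21.7% of all genes. It was 4 (Cp, Heph, Tfrc, Trf), beside 4.7%, without Ctrl CT16 and SCNx CT0 and with no filter on low counts. Both settings were chosen after seeing the data. The count in SCNx was 1 (Trf) with no filter, beside 3.44% of all genes. It was 1 (Tfrc), beside 4.67%, without Ctrl CT16 and SCNx CT0 and with no filter. The count of differing rhythms was 1 (Trf) with no filter, beside 1.62%. With no filter the count of genes called rhythmic in SCNx went from 0 to 1384, and the cause was not tested. When each mouse was left out in turn, the log2 fold change of Trf ranged from -0.18 (without SCNx CT0) to 0.49 and that of Slc40a1 from -0.15 (without SCNx CT0) to 0.91. For Trf it was -0.01 without Ctrl CT16 and SCNx CT0 with no filter. Circadian time as a block, which sets each SCNx mouse against the Ctrl mouse of its time, is the paired fit of the level, and it called 0 members. The day-night differences without Ctrl CT16 or SCNx CT32 were chosen after seeing the data. Slc40a1 could not be fitted where it fell under the filter. Depth limited Slc40a1, at a median of 0.882 CPM in Ctrl, and the KO values of Slc40a1, Steap3 and Abcb6, while 1 mouse per time limits the precision of every member.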
